A study of Mus musculus with 3 samples.

Results

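Isl1, Nkx2-5, Tcf21, Foxc2 and Six2 encode DNA-binding regulators of the mesoderm that builds the heart and the muscles of the face and neck. Their loci were examined for binding of TBX1 in whole mouse embryos at E9.5. Every peak of the 3 deposited replicate lists and every region of the deposited consensus list within 500 kb of the body of each gene was collected. The 5 genes are 5 of 22367 protein-coding genes in the GENCODE vM1 annotation of the mm9 mouse genome. Within that distance lay 15 peaks, which formed 8 of the 711 regions obtained when overlapping peaks of the lists were joined, and 5 of the 255 consensus regions. The embryos carried the Tbx1 3'-Avi allele, in which the endogenous Tbx1 gene ends in a sequence for a short peptide tag, and BirA, a bacterial biotin ligase expressed from the ROSA26 locus, and were homozygous for both on a mixed strain background. BirA biotinylates the tag, so TBX1 and the chromatin crosslinked to it were captured on streptavidin beads. There was 1 condition with 3 biological replicates, each made from pooled whole embryos, and embryos with BirA alone were not analysed here. A peak therefore cannot be assigned to a cell type, and no expression was measured in these samples.

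TBX1 is a T-box transcription factor expressed in the pharyngeal mesoderm, endoderm and ectoderm, and its loss disturbs the outflow tract of the heart and the branchiomeric muscles. The progenitors shared by these tissues form the cardiopharyngeal mesoderm, in which ISL1, a LIM-homeodomain protein, marks the second heart field and NKX2-5, a homeodomain protein, is an early regulator of cardiac fate. TCF21 is a basic helix-loop-helix factor of branchiomeric muscle precursors and of the epicardium, FOXC2 is a forkhead factor of cranial and paraxial mesoderm and of developing vessels, and SIX2 is a homeobox factor best known in nephron progenitors and also present in second heart field cells.

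The sequence under the peaks is shown for the regions that the results turn on. Each line gives 201 bp of the mm9 plus strand, 5' to 3', centred on the summit with the smallest q-value, which was that of replicate 2 in each of them. Capitals mark matches on either strand to any of 8 short words that are described further on. The Isl1 region had peaks in all 3 lists and held the highest ranks. The Six2 region lay at the promoter. The nearer Foxc2 region was the only Foxc2 region with peaks in all 3 lists, and the farther Foxc2 region was a tandem repeat of a 4-base unit. The Tcf21 region had the lowest mean percentile rank.
Isl1, chr13:116650707-116650907, plus strand: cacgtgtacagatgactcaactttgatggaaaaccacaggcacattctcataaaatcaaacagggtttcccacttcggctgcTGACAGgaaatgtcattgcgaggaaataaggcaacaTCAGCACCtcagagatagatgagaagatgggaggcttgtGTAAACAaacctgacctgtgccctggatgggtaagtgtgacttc
Six2 promoter, chr17:86087719-86087919, plus strand: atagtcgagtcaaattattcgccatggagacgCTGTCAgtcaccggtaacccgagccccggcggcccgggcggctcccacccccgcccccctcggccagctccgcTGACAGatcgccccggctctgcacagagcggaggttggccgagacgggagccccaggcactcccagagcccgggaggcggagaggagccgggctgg
Foxc2 near, chr8:123753609-123753809, plus strand: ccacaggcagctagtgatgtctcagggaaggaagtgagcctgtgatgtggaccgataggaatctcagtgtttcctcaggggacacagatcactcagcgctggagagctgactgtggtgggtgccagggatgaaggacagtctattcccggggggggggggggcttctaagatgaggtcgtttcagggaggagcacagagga
Foxc2 far, chr8:123996841-123997041, plus strand: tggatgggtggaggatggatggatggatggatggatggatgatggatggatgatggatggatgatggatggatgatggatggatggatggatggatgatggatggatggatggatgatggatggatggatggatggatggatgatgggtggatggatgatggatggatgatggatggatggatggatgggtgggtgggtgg
Tcf21, chr10:22378521-22378721, plus strand: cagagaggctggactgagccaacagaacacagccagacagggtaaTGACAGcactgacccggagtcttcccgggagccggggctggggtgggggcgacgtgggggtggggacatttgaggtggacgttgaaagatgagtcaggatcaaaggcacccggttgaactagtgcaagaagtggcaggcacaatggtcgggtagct

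A peak in at least 1 list lay within 500 kb of 4 of the 5 genes, and so did a consensus region. Of all protein-coding genes, 27.1% had a peak of any list and 12.9% had a consensus region within the same distance. A region with peaks in all 3 lists lay near 3 genes, Isl1, Foxc2 and Six2, against 4.90% of protein-coding genes. From the same ChIP-seq the paper proposes these 3 genes as possible direct targets. The 5 genes were chosen with earlier results of these data known, so their counts are not independent of that choice. Tcf21 had a peak in replicate 2 alone, and Nkx2-5 had none. Of the 8 regions, 3 had peaks in all 3 lists, 1 had peaks in 2, and 4 had a peak in 1 list, which was replicate 2 for 3 of them and replicate 3 for the other. No region rested on replicate 1 alone. The lists differ in length, with 146 peaks in replicate 1, 646 in replicate 2 and 296 in replicate 3, and the reads behind each peak are not in these files. How much the longer list of replicate 2 contributes to peaks seen there alone was not tested. Since there was 1 condition, no test between groups could be made, and the counts and shares are descriptions of these 3 lists.

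**Figure D1:**
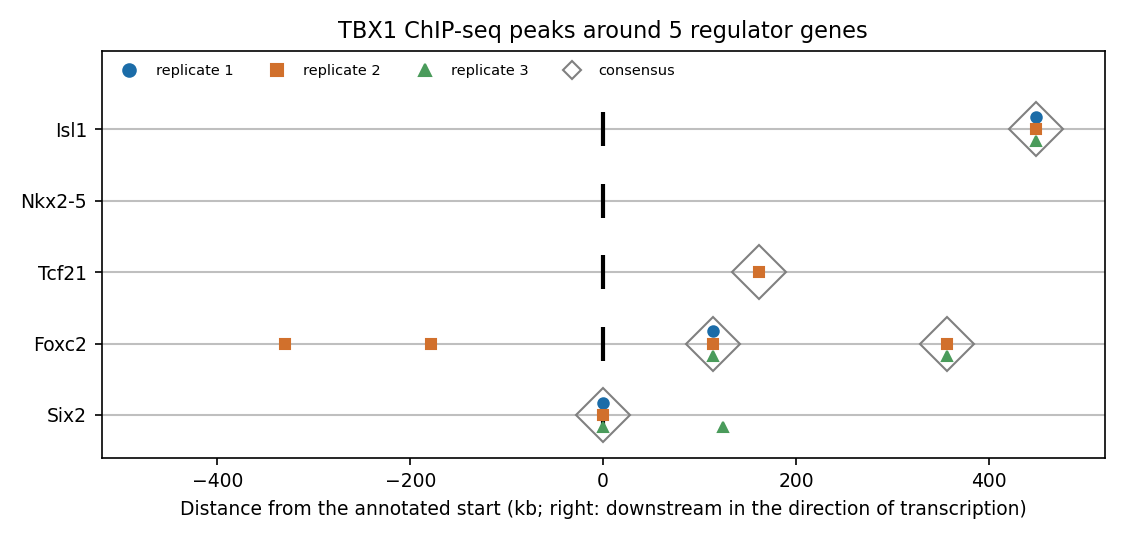
Positions of all peaks within 500 kb of the 5 genes, drawn as the distance in kb from the annotated start (black bar) with downstream to the right; symbols mark the replicate and open diamonds a consensus region. Isl1 and Tcf21 had regions on the downstream side, Six2 had a region at its start, Foxc2 had 4 regions on both sides, and Nkx2-5 had none.

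The distances ranged from the promoter to nearly the limit of the search. A consensus region began 0.074 kb from Six2, 110.7 kb from Foxc2, 158.3 kb from Tcf21 and 437.5 kb from Isl1, and the nearest to Nkx2-5 was 2556.4 kb away. The share of protein-coding genes with a consensus region as near or nearer was 0.541% for Six2, 3.33% for Foxc2, 4.57% for Tcf21, 11.5% for Isl1 and 42.8% for Nkx2-5. Among protein-coding genes on chromosomes that hold a consensus region, the median distance to the nearest one was 3020.9 kb. Each of the 5 genes, Nkx2-5 included, was nearer than that. Of the 8 regions, 3 lay between genes and 5 in introns, but 4 of those 5 were intronic only by a single gene model, Gm20388, described with Foxc2.

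**Figure D2:**
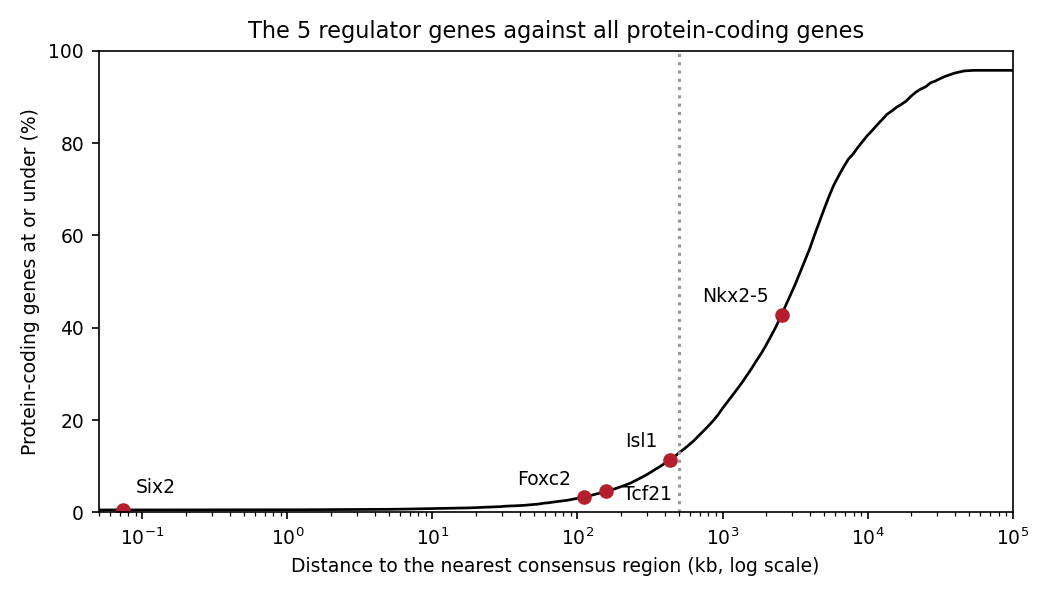
Cumulative share of protein-coding genes (y axis, %) by distance to the nearest consensus region (x axis, kb, log scale), with the 5 genes as red points and the 500 kb limit as a dotted line. Six2 sits at the near end of the curve, at 0.074 kb, and Nkx2-5 lies beyond the limit, at 2556.4 kb.

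Isl1 had the strongest region of the 5 loci. Isl1 lies on the minus strand of chromosome 13 at chr13:117088478-117099896 (ENSMUSG00000042258.5), and its region was chr13:116650669-116650963, downstream of the gene and between genes. The fold enrichment, which is the ChIP signal over the local background at the summit as MACS2 gives it, was 9.94 in replicate 1, 20.3 in replicate 2 and 9.49 in replicate 3. All 3 values lay above the medians of their lists, which were 6.51, 6.25 and 6.14. The q-values were small in every list, with a -log10 q of 14.5, 54.3 and 17.5. By fold enrichment the peak ranked 14 of 146, 6 of 646 and 37 of 296. On a percentile scale from 0 to 100 within each list, the mean was 92.6 ± 5.94 (SD, n = 3 lists), which placed the region at rank 12 among the 93 regions with peaks in all 3 lists. The summits of the lists lay within 42 bp of each other, where the median for regions with peaks in 3 lists was 46 bp.

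The surroundings of the Isl1 region hold few genes. The nearest annotated protein-coding start belonged to Gm6404, a 0.408 kb model 293.2 kb away that the RefSeq table does not list. The next was Isl1 itself, with its start 449.1 kb from the midpoint of the region. On the other side the nearest protein-coding gene was Itga1, which encodes an integrin alpha subunit, 758.6 kb away. Only 1 other protein-coding start lay within 500 kb of Isl1. The distance is also near the limit that was set, so at 100 kb Isl1 would not be counted. The regions elsewhere whose percentile ranks in the 3 lists were most like it, out of 92, were an intronic region of Tshz2, a teashirt zinc finger gene, with AY702102 as the nearest start and fold enrichments of 9.73, 17.6 and 8.73, and an intronic region of Kcnh1, a potassium channel gene, with 9.94, 14.2 and 11.4. The summed differences in percentile were 7.24 and 8.61. These regions differ from that of Isl1 in sequence complexity, a measure described with Foxc2, with 19.9% and 42.9% distinct 6-base words around the summit against 98.0% at Isl1.

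Nkx2-5 (ENSMUSG00000015579.4), on the minus strand at chr17:26975609-26978510, had no peak within 500 kb in any list. The locus is not poor in genes, with 18 other protein-coding starts within 500 kb, the most among the 5 genes. The nearest peak was 794.8 kb upstream, in replicate 2 alone, at chr17:27773347-27773679, 0.061 kb from the start of Rps10, a ribosomal protein gene. Its fold enrichment was 5.59 and its -log10 q 6.21, at rank 419 of 646. In replicate 3 the nearest peak was 2505.4 kb away with a fold enrichment of 3.70, and in replicate 1 it was 2556.5 kb away with 9.52. The lists hold only peaks that passed the threshold of the caller, so weaker signal at Nkx2-5 is not measured by them.

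Tcf21 (ENSMUSG00000045680.7), on the minus strand at chr10:22537085-22539934, had 1 region, at chr10:22378581-22378751, downstream of the gene. The peak was called in replicate 2, where the fold enrichment was 3.92, the -log10 q 2.56 and the rank 546 of 646. It ranked lowest of the 7 peaks of replicate 2 near the 5 genes. The nearest peak was 1512.1 kb from Tcf21 in replicate 1 and 13272.5 kb in replicate 3. The consensus list nevertheless held a region there, at chr10:22378513-22378790, although the authors kept regions with peaks in 2 or more replicates. Of that region, 107 bases lay outside the deposited peak. Across the whole consensus list 38 of 255 regions overlapped peaks of fewer than 2 deposited lists. The region lay in an intron of Slc2a12, which encodes a glucose transporter, 13.8 kb from that gene's start, and Tbpl1, a gene for a TBP-like protein, lies between it and Tcf21.

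Foxc2 (ENSMUSG00000046714.6), on the plus strand at chr8:123640071-123642792, had 4 regions, the most of the 5 genes. The nearest, at chr8:123753534-123753879, lay 110.7 kb downstream and had peaks in all 3 lists. Its fold enrichment was 8.28 in replicate 1, 9.24 in replicate 2 and 5.12 in replicate 3, and the -log10 q was 11.0, 14.3 and 3.90. The first 2 values lay above and the third below the median of its list, and the ranks were 32 of 146, 90 of 646 and 219 of 296. The mean percentile was 63.0 ± 33.1 (SD, n = 3), at rank 61 among the 93 regions of 3 lists. Its summits were spread over 104 bp, wider than in most, since 90.3% of those regions had a spread as small or smaller. The nearest start that GENCODE vM1 types as protein-coding was that of Foxc2, at 113.6 kb from the midpoint. Foxl1, a further forkhead gene between Foxc2 and the region, starts nearer, at 101.9 kb, and is typed as a pseudogene there but as protein-coding in the RefSeq table.

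The second Foxc2 region, at chr8:123996798-123997185, lay 354.0 kb downstream and had peaks in replicates 2 and 3. The fold enrichment was 10.2 and 5.80 and the -log10 q 16.8 and 5.55, at ranks 59 of 646 and 174 of 296. The value in replicate 2 was the highest of that list at Foxc2, and that in replicate 3 lay under the median of its list. The mean percentile was 65.4 ± 35.7 (SD, n = 2), and it was 40.2 in replicate 3 alone. The regions most like it in percentile ranks, out of 146, were an intronic region of Slit1, which encodes a guidance ligand, with a summed difference of 4.99, and a region with Fbxo32 as the nearest start, with 7.42. The nearest protein-coding start to the Foxc2 region was that of 1700018B08Rik, at 68.9 kb. The other Foxc2 regions lay upstream and had a peak in replicate 2 alone. At chr8:123461397-123461544, 178.5 kb upstream, the fold enrichment was 6.64, the -log10 q 7.16 and the rank 264 of 646. At chr8:123309966-123310324, 329.7 kb upstream, they were 6.25, 6.21 and 320 of 646. Both were close to the median of their list. The first of these was nearer to the start of Foxf1a, a forkhead gene of the mesenchyme around the gut and lung, at 146.8 kb, and the second to Irf8, a regulator of myeloid cells, at 49.9 kb. All 4 regions lie inside Gm20388, a protein-coding model of 4434.9 kb that spans the locus and that the RefSeq table does not list, and in no other annotated gene.

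**Figure D3:**
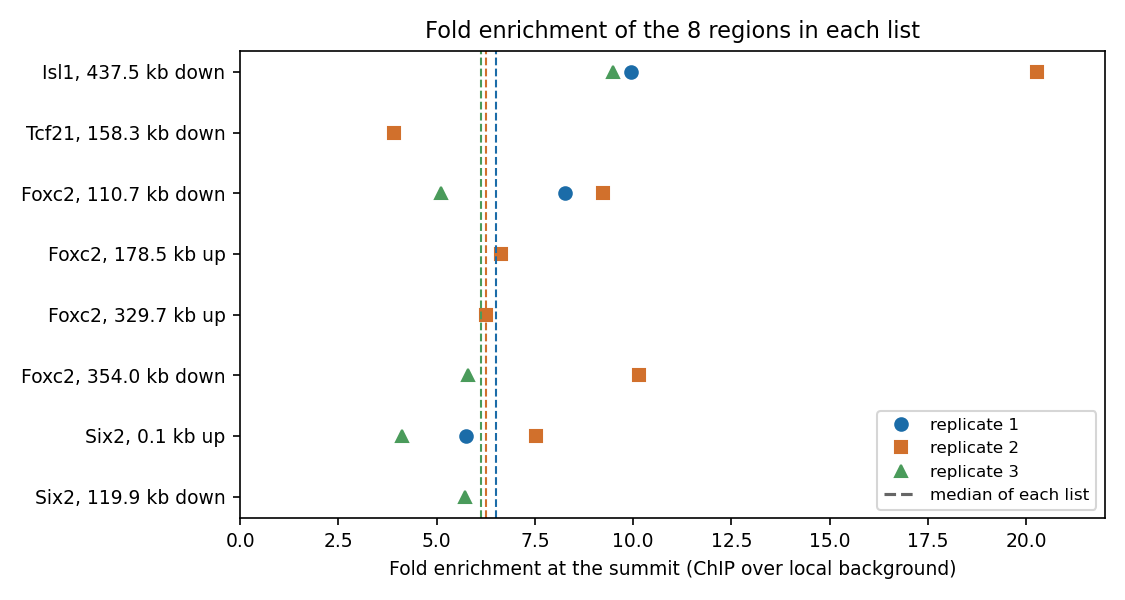
Fold enrichment at the summit (x axis, ratio of ChIP to local background) of the 8 regions in each list that has a peak, named by gene and by distance from the gene body up- or downstream; dashed lines are the medians of the lists. The Isl1 values (9.94, 20.3 and 9.49) lie above all 3 medians, and the Tcf21 value of 3.92 is the lowest of replicate 2.

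Of the Foxc2 regions, 2 were simple repeats. In the 201 bp around the summit, distinct words of 6 bases made up 10.7% of all such words in the region 354.0 kb downstream and 18.4% in that 329.7 kb upstream. In the first, 79.3% of 4-base words were the unit ATGG or a rotation of it, and in the second 63.1% were ATCC or a rotation, the same repeat read on the other strand. The other 6 regions had between 83.2% and 98.0% distinct words, and the median over the 711 regions was 94.4%. Of all regions, 80 (11.3%) were under 50%, and 40 of these had peaks in 2 or more lists. Among the 252 joined regions in the consensus list, 35 (13.9%) were under 50%. Without the repeats Foxc2 kept 2 regions, including that with peaks in all 3 lists, and the regions near the 5 genes were 6, of which 3 had peaks in 2 or more lists. This measure was chosen after the sequences were seen, and its part in the peaks was not tested. The near Foxc2 window, at 90.8% distinct words, holds a run of G.

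**Figure D4:**
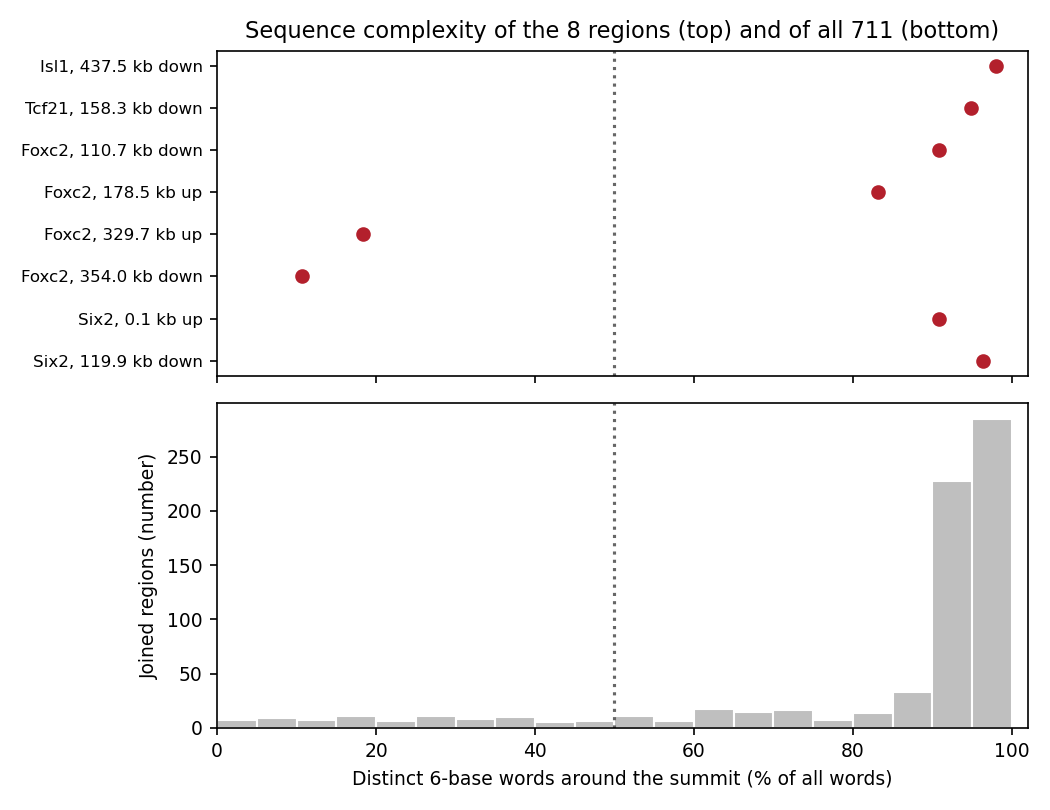
Distinct 6-base words as a percent of all 6-base words in the 201 bp around the summit, for the 8 regions (top, named by gene and distance) and as a histogram of all 711 joined regions (bottom, number of regions per bin); the dotted line is at 50%. The Foxc2 regions at 10.7% and 18.4% fall left of the line and the other 6 lie at 83.2% or above.

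Six2 was the only gene of the 5 with a region at its start. Six2 (ENSMUSG00000024134.9) lies on the minus strand at chr17:86083608-86087594, and the region at chr17:86087694-86087947 lay just upstream, between genes. The fold enrichment was 5.75 in replicate 1, 7.52 in replicate 2 and 4.11 in replicate 3, and the -log10 q was 4.34, 10.1 and 2.61. Replicate 2 alone was above the median of its list. The ranks were 92 of 146, 187 of 646 and 261 of 296, so that the mean percentile was 39.9 ± 30.1 (SD, n = 3), at rank 83 among the 93 regions of 3 lists. Without replicate 2 the mean percentile was 24.2. The position was closely shared. The summits lay 239, 225 and 226 bp upstream of the start, a spread of 14 bp, and 11.8% of regions with peaks in 3 lists had a spread as small. Of all protein-coding genes, 17 (0.0760%) had a consensus region within 1 kb of the start.

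The Six2 promoter region was rich in G and C. Its GC content was 70.8%, at the 99.2 percentile of the consensus regions, whose median was 50.4%, and the ratio of observed to expected CpG in the printed window was 0.788. Whether base composition has a part in this peak was not tested. RefSeq gives the same start for Six2, and its 300-base promoter window, placed on mm9 by an exact match at chr17:86087545-86087844, contained all 3 summits. The regions most like it in percentile ranks, out of 92, had Farp1 (summed difference 17) and Fanci (27.7) as the nearest starts, and the latter also lay at a promoter, 0.001 kb from the start of that gene. A second region, at chr17:85963444-85963725, lay 119.9 kb downstream with a peak in replicate 3 alone, at a fold enrichment of 5.72, a -log10 q of 5.08 and rank 183 of 296. It lies beyond Six3, the paralogue next to Six2 that is known from forebrain and eye development, and was nearer to the Six3 start, at 49.4 kb.

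**Figure D5:**
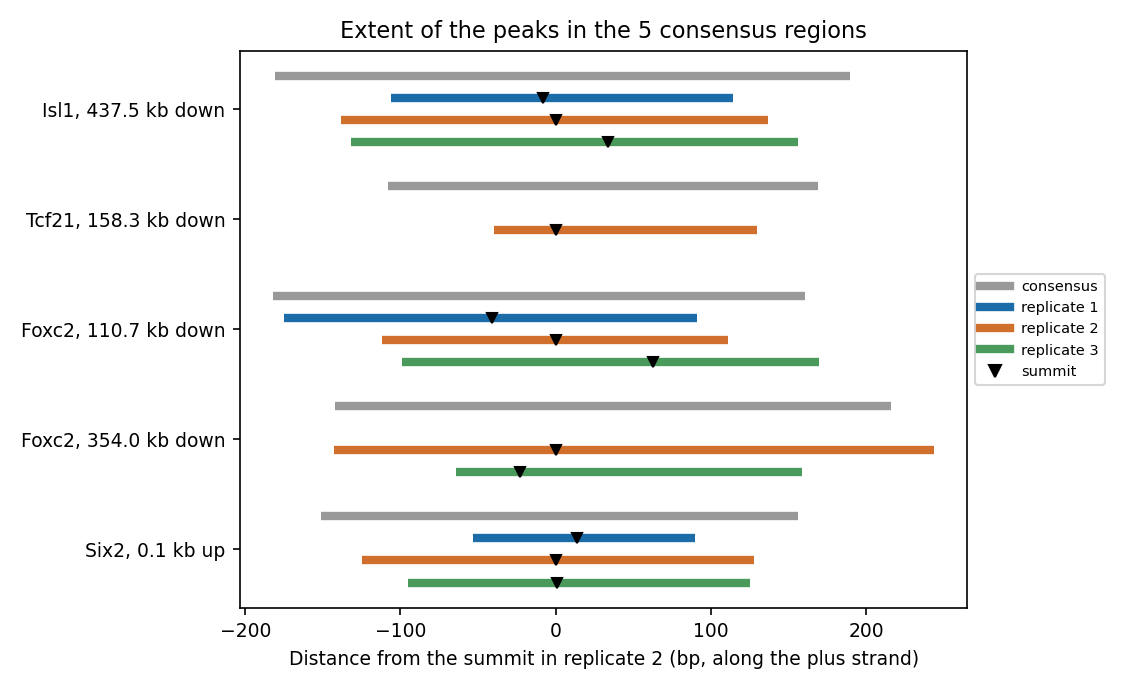
Extent of the peaks (coloured bars, by replicate), their summits (triangles) and the consensus region (grey bars) for the 5 consensus regions near Isl1, Tcf21, Foxc2 and Six2, in bp from the summit in replicate 2. The Six2 summits span 14 bp and those of the near Foxc2 region 104 bp, and at Tcf21 a peak of replicate 2 alone underlies the consensus region.

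The order of Isl1, Foxc2 and Six2, compared by their regions with peaks in all 3 lists, was the same within each list. The percentiles of Isl1 were 90.7, 99.2 and 87.8, those of the near Foxc2 region 77.9, 86.0 and 25.1, and those of Six2 37.2, 71.2 and 11.2. Isl1 did not overlap with the others, whereas the ranges of Foxc2 and Six2 overlapped and their means differed by less than the SD of either. That SD is a spread between lists and does not measure the difference within a list, where Foxc2 was higher each time. In all of these regions replicate 3 gave the lowest percentile and replicate 2 the highest. These percentiles come from lists of different length, and the part of list length in that order was not tested.

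Short words known from factor families were searched on both strands of the regions, in the consensus region where there was one and otherwise in the peak. They were GGTGTGA, the core of the T-box element, GGTGNTGA, a related word with 1 free base, TGACAG, typical of MEIS and TGIF proteins, TGATTGAT, a word of PBX-HOX type, TGATTGACA, of the type that PBX forms with MEIS or PREP, CAGCTG, an E-box that basic helix-loop-helix factors use, GTAAACA, the forkhead word, and CACTTAA, the NKX2 word. GGTGNTGA and TGATTGACA can each share letters with TGACAG. Distances are given from the summit to the middle of the word. TGACAG was in 3 of the 5 consensus regions near the genes, those of Isl1, Six2 and Tcf21. It was in 54.5% of all consensus regions and in 24.3% and 25.9% of equally wide windows placed 5 kb right and 5 kb left of them. In the Isl1 region a TGACAG lay 16 bp left of the summit and a second 157 bp left of it, in the Six2 promoter a match lay 7 bp right and a second 66 bp left, and in the Tcf21 region it was 53 bp left.

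GGTGNTGA was in the Isl1 region, 21 bp right of the summit, and in the second Six2 region, 5 bp left, where TGACAG and CAGCTG, which overlap there, lay 8 and 11 bp right of the summit. Of the consensus regions 27.5% held GGTGNTGA, against 7.06% and 3.14% of the windows to the right and left. The forkhead word was in the Isl1 region and in the Foxc2 region 178.5 kb upstream, and is in 3.92% of consensus regions, fewer than the 7.06% and 5.49% of the windows to the right and left. CAGCTG was in the near Foxc2 region, 132 bp from the summit, in that 178.5 kb upstream and in the second Six2 region, and is in 36.1% of consensus regions and 18.8% and 19.2% of the windows. TGATTGAT was in the repeat 329.7 kb upstream of Foxc2, 139 bp from the summit, and in 11.0% of consensus regions and 2.75% and 1.57% of the windows. None of the 8 regions held GGTGTGA, TGATTGACA or CACTTAA. The T-box core GGTGTGA was in 1.96% of consensus regions, fewer than the 3.92% and 5.10% of the windows to the right and left. That is an exact match of every letter and not a motif search, so it does not measure T-box motifs. With a motif search the paper reports a T-box motif in most of its consensus peaks. TGATTGACA was in 1.57% of consensus regions and in 0% and 0.784% of the windows, and CACTTAA was in 3.92% of them and of the windows on either side. The repeat 354.0 kb downstream of Foxc2 held none of the 8 words. In the RefSeq promoter windows, Six2 held 2 TGACAG words, which lay in its peak region, and Nkx2-5, with no peak, held 1, while 19.2% of 32851 promoters held the word. The promoter of Isl1 held a CAGCTG, as did 16.3% of promoters, and that of Tcf21 held none of the words. A match is a description of the letters and not of a bound site.

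A list of 23 further regulators of the cardiopharyngeal mesoderm and its neighbours was read in the same way. A peak of any list lay within 500 kb of 12 of them, a consensus region near 8 and a region with peaks in all 3 lists near 6, which are 52.2%, 34.8% and 26.1%, beside 27.1%, 12.9% and 4.90% of all protein-coding genes. These genes are not independent, since some share regions, and the 12 had 16 regions in all. Foxf1a and Foxl1 share the 4 regions of Foxc2, and Mesp1 and Mesp2, basic helix-loop-helix factors of early mesoderm, share their regions. The Mesp1 and Mesp2 region with peaks in all 3 lists is the Fanci promoter region named with Six2. It lay 400.1 kb from Mesp1 and 418.6 kb from Mesp2, with 9 and 10 protein-coding starts between. Their other region, in replicate 2 alone, lay 0.368 kb from the start of Sema4b. Lhx2, a LIM-homeodomain gene like Isl1, had a region 286.4 kb upstream with fold enrichments of 8.23, 8.60 and 5.0 in the 3 lists. Hand1, a basic helix-loop-helix gene of the heart, and Meis2, a homeobox gene, had regions with peaks in replicates 2 and 3, 393.0 and 471.0 kb away. The Hand1 region was 10.9 kb from the start of Irgm2, with 7 protein-coding starts between it and Hand1. Near 4 genes, Gata6, Mef2c, Hoxb1 and Nkx2-6, the peaks came from 1 list alone. That of Nkx2-6, a paralogue of Nkx2-5, lay 9.4 kb upstream in replicate 2 with a fold enrichment of 2.28, and its window held 46.4% distinct 6-base words. The remaining 11, Eya1, Foxc1, Foxa2, Hand2, Gata4, Gata5, Msc, Myf5, Myf6, Hey1 and Hey2, had no peak within 500 kb.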

How the data were processed

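The authors performed TBX1 ChIP-seq on 3 biological replicates of pooled whole embryos at E9.5. Trimmed reads were aligned to mm9 with Bowtie2 2.3.4, unique and non-duplicate pairs were kept, and peaks were called by the authors in each sample against input, using MACS2 2.1.2.1 with its defaults. Of the deposited columns, fold enrichment is the ratio between ChIP and local background, the p-value and q-value are given as -log10, and the deposited score is 10 times the -log10 q cut to a whole number for every peak, so the score and the p-value were not used. The authors formed the consensus list with BEDTools 2.29 from regions shared by 2 or more replicates, less those on the ENCODE blacklist. An edge of 239 of 255 consensus regions (93.7%) lay beyond all deposited peaks overlapping it, and whether the consensus was made from exactly these lists is not given in the sources used here. The deposited lists also differ in length from those the paper describes, so which list holds a peak applies to the deposited lists. Lists carry the replicate numbers of the labels. The replicate numbers that the paper gives with its sequencing depths could not be tied to them, so those depths were not used and no counting error is given.

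Gene bodies and sequences came from GENCODE vM1 and NCBIM37, which is mm9, and coordinates are 1-based. Peaks of different lists that shared 1 bp or more were joined. Each peak was ranked by fold enrichment within its list, since levels are not comparable between lists. No test was run, as there was 1 condition. The counts of genes are given with the share of protein-coding genes that meet the same criterion. Named are the 5 genes, genes of the list of 23 further regulators, the gene with the nearest start or holding each region, and the nearest genes of the 2 regions most like it in percentile rank. The members and lists were chosen with earlier results of these data known. Itga1 and Tbpl1, which lie beside a region or between it and a gene, were named after their values were seen. The list first held 3 more genes, which are not reported here and enter none of its counts or shares, and 1 of the remaining 23 is counted but not named. Promoters are RefSeq sequences of GRCm38.p6, found for 4 of the 5 genes, all but Foxc2, and placed on mm9 by exact match. The functions for overlap, distance, rank and words were tested on simulated data. Python 3.11.15 with numpy 2.4.6, scipy 1.17.1 and matplotlib 3.10.9 was used.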

Additional observations from a re-analysis of the deposited data

How the results depend on the processing

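The distance decided the counts most. At 100 kb, and also at 50 kb, 1 gene (Six2) had a peak, a consensus region and a region in all 3 lists, and 1 region was left, in 3 lists. The share of protein-coding genes with a consensus region was 3.07% at 100 kb, 1.73% at 50 kb and 22.5% at 1000 kb. At q under 1e-05, 1 gene (Isl1) kept a region in all 3 lists. Leaving out each replicate in turn, the genes with a peak ranged from 3 to 4. The regions ranged from 5 to 8, the lowest without replicate 2, and those in at least 2 lists from 3 to 4. The genes with a region in all remaining lists were 3 each time. That count is no check, since a region in all 3 lists stays in those left while its peaks still overlap. Of the counts and shares, 40 of 55 alternatives stayed within 1.5 times the reported value and 15 did not. Without replicate 2 Tcf21 lost its peak, and the nearest was 1512.1 kb away, and at q under 1e-05 it was 1168.4 kb away. Without replicate 2 the nearest to Nkx2-5 was 2505.4 kb away. Leaving out regions of low sequence complexity, an alternative chosen after seeing the data, kept 4 genes with a consensus region and 3 with a region in all 3 lists. With each region followed as a replicate was left out, a reading added after seeing the data, the mean percentile ranged from 89.2 to 95 at Isl1. It ranged from 51.5 to 82 at the near Foxc2 region and from 24.2 to 54.2 at the Six2 promoter. The repeat 354.0 kb downstream of Foxc2 has peaks in replicates 2 and 3 only. Its values of 40.2 and 90.7 are percentiles of 1 list each, and its mean of 65.4 did not change without replicate 1. Each region was lowest without replicate 2. The mean of the repeat is over 2 lists and that of the near Foxc2 region, 63.0, over 3. In replicates 2 and 3 the repeat had the higher percentile, 90.7 and 40.2 against 86.0 and 25.1. Without replicate 2 the near region had the higher mean, 51.5 against 40.2, through its percentile of 77.9 in replicate 1. No paired analysis was possible because there was 1 group. The reads behind the peaks are unknown, so absence from a list is not absence of binding.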
